A study of Mus musculus with 6 samples.

Results

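Disease-associated-like (DAM-like) microglia of the cerebral cortex at P12 were defined by transcripts detected in single cells. A barcode counted as a microglial cell when it held at least 1500 unique molecular identifiers (UMIs, 1 per captured transcript), at most 17% of them mitochondrial, at least 4 of the 8 microglia genes Csf1r, C1qa, Cx3cr1, Tmem119, P2ry12, P2ry13, Siglech and Selplg, and at most 1 UMI over Cldn5, Aqp4, Kcnj8 and Mrc1. It was called DAM-like when at least 2 of the 6 marker genes Axl, Clec7a, Itgax, Cst7, Lpl and Spp1 had a UMI. The rule gave 435 cells among 1992 microglia. The cortex libraries held 7765 barcodes past the UMI and mitochondrial limits, and all 6 libraries of the series held 67751.

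The cortex data are 1 control and 1 mutant library, each made from the cortices of 2 P12 mice that were pooled as tissue, so that the number of cells from each mouse is unknown. Control mice are given as Nodal lox/lox, with no statement on the CreERT2 transgene in the sources used here. Nodal iPCKO mice carried floxed alleles together with Pdgfrb-CreERT2, a transgene that drives an inducible Cre recombinase in cells with Pdgfrb promoter activity, mainly pericytes and other mural cells, so that microglia were not the intended target. All mice of both groups had received 50 µg tamoxifen 3 times, from P1 to P3. The cortex was dissociated enzymatically and freed of myelin debris, with no sort for microglia, and sex is not given per library. Each genotype has 1 library, so no p-value was computed, and genotype and library cannot be told apart. The intervals in parentheses are exact 95% intervals (Clopper-Pearson for shares, Poisson for counts) and cover counting error only.

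Microglia are the resident macrophages of the brain. In the homeostatic state they express purinergic receptors, Tmem119 and the fractalkine receptor Cx3cr1. In models of neurodegeneration a subset lowers these genes and takes up a phagocytic and lipid-handling programme with Apoe, Axl, Itgax, Clec7a, Lpl, Cst7 and Spp1, known as the disease-associated state, of which a Trem2-dependent step is part. A related programme is found in healthy postnatal white matter, where amoeboid microglia gather around developing axon tracts.

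The label was checked against genes outside the rule. Transcripts of blood-borne myeloid cells were low. The monocyte gene Ly6c2 had no UMI in control DAM-like cells and 0.154 CPM in iPCKO DAM-like cells (CPM, UMIs per 1000000 UMIs summed over the same cells), and Ccr2, the receptor that brings monocytes into tissue, had 2.35 and 0.617 CPM. The 10 monocyte markers together had 24.7 (11.3 to 43.2) CPM in control and 35.2 (29.0 to 42.2) CPM in iPCKO DAM-like cells, against 21.6 and 27.7 CPM in the other microglia. In iPCKO the 3 of these markers with at least 50 UMIs had higher levels in DAM-like cells, with 15.4 against 14.3 CPM for Fn1, 8.64 against 5.52 for Plac8 and 8.18 against 5.14 for S100a4, the last 2 past 1.5-fold. Some late genes of the disease-associated state were also close to absent. Gpnmb, a lysosomal glycoprotein, had 0 and 2 UMIs in the control and iPCKO DAM-like cells, Igf1 had 3 and 15, and Lgals3, which encodes a galectin, had 2 and 28 (these 3 were chosen after their values were seen). The name therefore stands for the marker rule and for no wider identity.

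Nodal, the targeted gene on chromosome 10 from 61253587 to 61261117 of GRCm39, had 199 UMIs in 112 of the 3015 control barcodes and 5 UMIs in 5 of the 4750 iPCKO barcodes, or 6.78 (5.87 to 7.79) and 0.104 (0.0338 to 0.243) CPM. No DAM-like cell of either library had a Nodal UMI. The DAM-like cells held 425918 UMIs in control and 3241580 in iPCKO, so that every control value is less precise. Their median depth was 8074 and 8297 UMIs per cell, above the 5909 and 5820.5 of the other microglia. The libraries shared 20 barcodes among those past the limits and none among DAM-like cells, of 912673 possible barcodes. Scrublet called 0 of 52 control and 2 of 383 iPCKO DAM-like cells doublets. It called few barcodes at all, 21 of 3015 in control (0.697%) and 48 of 4750 in iPCKO (1.01%), at an expected rate of 0.1. A control DAM-like barcode with 331 UMIs of the mural cell gene Rgs5, described below, was not called. The few calls therefore do not show that the class is free of doublets. In the 4 lung libraries, depleted of CD45+ cells, 4 of 59986 barcodes met the microglia rule and 1 met the whole rule. Between 93.7 and 94.2% of DAM-like cells had a Xist UMI.

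DAM-like cells made up a larger part of the microglia in the iPCKO library. There were 52 among 745 control microglia, 6.98% (5.26 to 9.05), and 383 among 1247 iPCKO microglia, 30.7% (28.2 to 33.4), a ratio of 4.40. Microglia as such were 24.7% and 26.3% of the barcodes. The control distribution of marker genes per cell ended early, with 481 cells without a marker, 212 with 1, 41 with 2, 9 with 3 and 2 with 4. In iPCKO the numbers were 399 without a marker, 465 with 1, 245 with 2, 83 with 3, 39 with 4, 14 with 5 and 2 with all 6. Cells with more markers were also sequenced more deeply: median UMIs were 5712, 6577 and 7898 for control cells with 0, 1 and 2 markers, and 5293, 6394 and 7480.0 for iPCKO cells. Thinning each cell to 1500 UMIs dropped 1 control and 3 iPCKO cells as too shallow after rounding, and of the remainder 1.21% of control and 9.24% of iPCKO microglia met the marker rule. With 4000 UMIs per cell the shares were 4.95% and 22.3%, after 79 control and 161 iPCKO cells were left out as too shallow. The ratio lay between 3.92 and 7.64 over 18 alternatives of the rule.

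**Figure D1:**
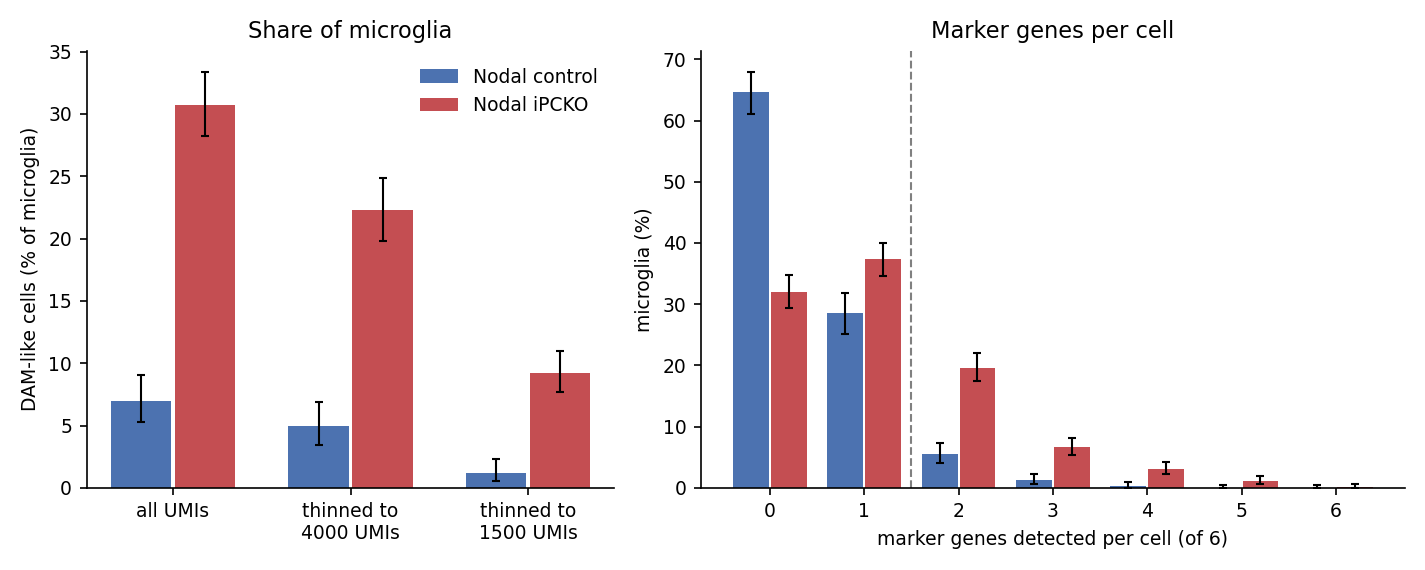
DAM-like cells as a percentage of microglia with all UMIs and after thinning (left), and microglia by the number of the 6 marker genes detected per cell, in percent (right), in Nodal control (blue) and Nodal iPCKO (red), with Clopper-Pearson 95% intervals as error bars and the limit of the rule as a dashed line. The iPCKO share lies above the control share at each depth, 30.7% against 6.98% with all UMIs.

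The marker rule was also applied to endothelial-like and astrocyte-like cells, which should not be microglia. These were limited to at most 1 UMI over Csf1r, C1qa, Cx3cr1 and Tmem119. Barcodes with more microglial RNA were thus left out beforehand, so the shares below cannot show how much free RNA contributes. In endothelial-like cells, at median depths of 9987 and 10090.0 UMIs, at least 2 markers were found in 0.881% of control and 0.551% of iPCKO cells. In astrocyte-like cells, at 10886 and 11460.0 UMIs, the shares were 5.58% and 4.05%, and Axl alone was found in 72.1% and 72.5% of them. Axl was rare in endothelial-like cells (3.14% and 3.44%). Barcodes under 200 UMIs had 76.7 CPM of Axl in control and 96.2 in iPCKO, and 37.4 and 59.2 CPM of Lpl. Over all microglia Axl had 36.4 and 268 CPM and Lpl 103 and 248 CPM. Of the markers of the rule, any of Clec7a, Itgax and Cst7 was found in 4.56% (3.18 to 6.32) of control and 18.0% (15.9 to 20.2) of iPCKO microglia, against 0.629% and 0.551% of endothelial-like and 1.04% and 0.438% of astrocyte-like cells. Spp1 was not rarer in astrocyte-like cells of control, with 2.73% against 2.01% of microglia, and was alike in iPCKO (3.50% and 3.53%).

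The 6 markers contributed unequally, and their values describe the rule and are not evidence for it. Axl, a receptor tyrosine kinase that binds Gas6 on dying cells (chromosome 7 from 25456535 to 25488329 of GRCm39, minus strand), was found in 13.7% (11.3 to 16.4) of control and 53.3% (50.5 to 56.1) of iPCKO microglia. Its level was 209 and 461 CPM in DAM-like cells of control and iPCKO, and 19.3 and 149.9 CPM in the other microglia, so that iPCKO cells outside the rule came closer to control cells inside it than control cells outside it did. Lpl, lipoprotein lipase (chromosome 8 from 69284603 to 69360100, plus strand), was found in 23.6% and 35.0% of microglia, with 319 and 555 CPM in DAM-like cells. Outside the rule Lpl was lower in iPCKO (58.8 CPM) than in control (82.0 CPM), but this class was cut on Lpl itself. Over all microglia Lpl had 103 CPM in control and 248 CPM in iPCKO. Both Axl and Lpl were found in 59.6% (45.1 to 73.0) of control and 72.6% (67.8 to 77.0) of iPCKO DAM-like cells, and 44.2% and 41.0% had these markers and no other.

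Itgax, the integrin chain CD11c (chromosome 7 from 127728668 to 127749829, plus strand), was found in 17.3% (8.23 to 30.3) of control and 39.9% (35.0 to 45.0) of iPCKO DAM-like cells, at 39.9 (23.3 to 63.9) and 132 (119.8 to 145) CPM. Clec7a, the beta-glucan receptor Dectin-1 (chromosome 6 from 129438554 to 129449742, minus strand), was found in 9.62% and 14.6%, and all 208 of its iPCKO microglial UMIs lay in the 56 positive DAM-like cells. Cst7, cystatin F, an inhibitor of lysosomal cathepsins (chromosome 2 from 150412284 to 150420864, plus strand), was found in 15.4% and 18.3%. Spp1, the secreted glycoprotein osteopontin (chromosome 5 from 104582165 to 104589235, plus strand), went the other way, with 23.1% (12.5 to 36.8) in control and 10.2% (7.34 to 13.7) in iPCKO. Over all microglia Spp1 was found in 2.01% and 3.53%. Of the remaining 5 markers, Lpl was found in nearly the same share of control and iPCKO DAM-like cells (78.8% and 78.9%). The others were found in a larger share of iPCKO than of control DAM-like cells. The intervals of the libraries were apart for Itgax and overlapped for the 5 others, Spp1 included.

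**Figure D2:**
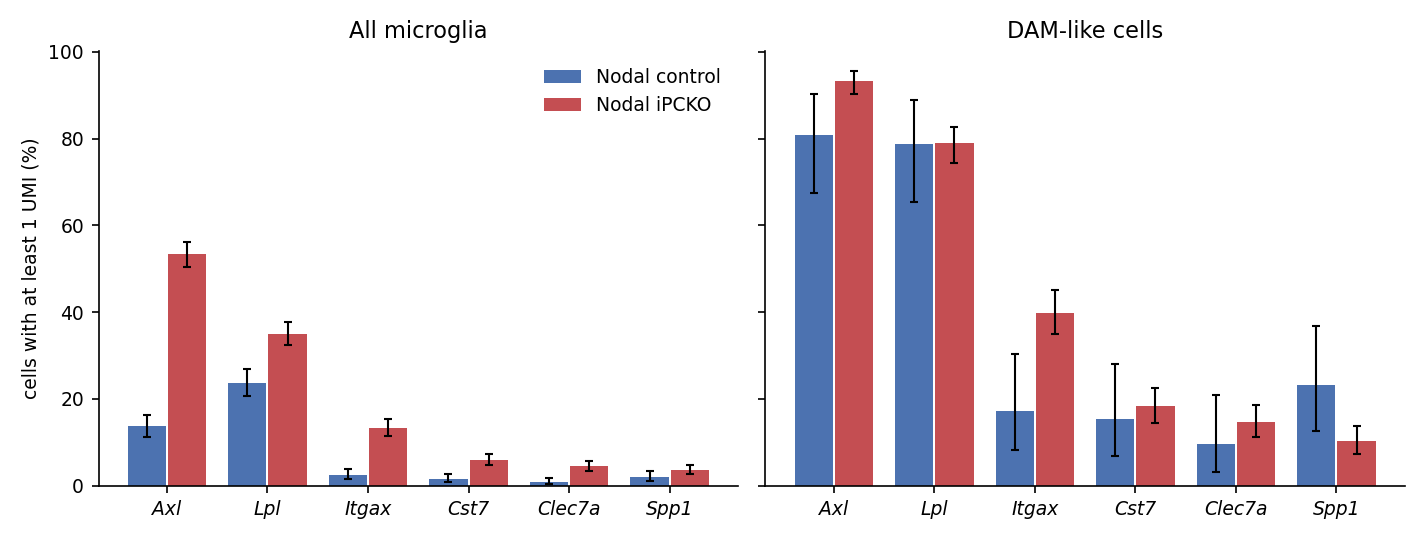
Cells with at least 1 UMI of each marker gene, in percent, among all microglia (left) and among DAM-like cells (right) of Nodal control (blue) and Nodal iPCKO (red), with Clopper-Pearson 95% intervals. Axl and Lpl are found in most DAM-like cells, 80.8% and 78.8% in control, and Spp1 alone is found in a larger share of control than of iPCKO DAM-like cells.

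Promoter sequences of Axl, Itgax and Cst7 were read from RefSeq to show what stands before their start sites. Lpl had no entry there and Clec7a and Spp1 had 2 each, so the promoters of these markers were not searched. Each sequence that was read covers 250 bases before to 50 after the start of transcription on GRCm38.p6, written along the gene. The letters TGANTCA, with any base in the middle, are a loose form of the site of the AP-1 family of Fos and Jun factors. They were searched on both strands and are in 7.81% of 32851 promoters. They were found in Itgax (chr7:128129300-128129599, plus strand), 56 bases before the start, and in Cst7 (chr2:150570165-150570464, plus strand), 6 bases before it, and stand in capitals. Axl had no match to them in this window. A match is a run of letters and not evidence of binding.
Itgax: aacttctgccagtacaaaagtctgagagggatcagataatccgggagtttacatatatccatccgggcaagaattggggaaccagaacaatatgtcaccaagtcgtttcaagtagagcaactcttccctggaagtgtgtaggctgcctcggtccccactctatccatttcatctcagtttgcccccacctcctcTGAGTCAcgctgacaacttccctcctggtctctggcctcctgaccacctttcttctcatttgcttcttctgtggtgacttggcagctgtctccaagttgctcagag
Cst7: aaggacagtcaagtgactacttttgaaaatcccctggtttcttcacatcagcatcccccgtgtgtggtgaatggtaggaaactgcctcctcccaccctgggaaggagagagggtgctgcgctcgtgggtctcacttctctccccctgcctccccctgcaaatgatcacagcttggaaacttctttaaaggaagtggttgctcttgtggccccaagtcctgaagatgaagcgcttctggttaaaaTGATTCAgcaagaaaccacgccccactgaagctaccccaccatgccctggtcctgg

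The genes of DAM-like cells were compared with those of the other microglia in each library. Since the classes were cut on measured genes, this is a description without a test. A gene was counted as higher or lower past 1.5-fold when it had at least 50 UMIs in both classes together, leaving out the 18 genes of the rule. DAM-like cells had more transcripts of further disease-associated genes, of inflammatory cytokines and chemokines and of antigen presentation genes. In control 9.75% of 8485 genes were higher and 12.1% lower past this fold, and in iPCKO 4.66% of 9945 were higher and 5.92% lower. Past it in both libraries were 110 of 8440 genes in the higher direction (1.30%) and 135 in the lower (1.60%). With median-of-ratios scaling in place of CPM these were 161 higher and 93 lower, so that the balance of directions depends on the scaling. The median log2 ratio over all genes was -0.02 in control and -0.07 in iPCKO.

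Of the other genes known from the disease-associated state, 12 of 24 in control and 10 of 24 in iPCKO were higher and none lower past 1.5-fold, with median log2 ratios of 0.59 and 0.49. Cd52, a small surface glycoprotein of leukocytes, had 257 CPM in other and 843 CPM in DAM-like cells of control, and 728 and 1537 CPM in iPCKO. The ratios were 1.72 (1.54 to 1.89) and 1.08 (1.02 to 1.14) on the log2 scale. Lyz2, lysozyme, stood at 57.3 and 171 CPM in control and at 80.9 and 186 CPM in iPCKO. Apoe, the main lipid carrier of the brain, had almost the same level in DAM-like cells of control (1204 CPM) and iPCKO (1208 CPM), against 646 and 753 CPM in the other microglia. The highest 3 DAM-like cells held 32.2% of the Apoe and 39.6% of the Cd52 UMIs in control, and 5.98% and 4.38% in iPCKO. The chemokine gene Ccl6 had 48.8 and 117 CPM in control and 30.1 and 69.4 CPM in iPCKO. Capg, an actin-capping protein, had 12.6 and 37.6 CPM in control and 18.3 and 53.1 CPM in iPCKO. Trem2, the lipid-sensing receptor of this state, differed little, with 868 and 1024 CPM in control and 828 and 829 CPM in iPCKO.

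Homeostatic genes had medians below 0. Leaving out the genes of the rule, 3 of 18 in control and 4 of 18 in iPCKO were lower past 1.5-fold and none higher, with medians of -0.26 and -0.19. In control this count lies near the 12.1% of all genes lower past the fold. Slc2a5, a fructose transporter typical of microglia, had 305 and 176 CPM in other and DAM-like cells of control and 182 and 112 CPM in iPCKO. Crybb1, a crystallin gene of immature microglia, had 453 and 279 CPM in control and 194 and 106 CPM in iPCKO. The adhesion receptor gene Adgrg1 had 344 and 204 CPM in control and 205 and 135 CPM in iPCKO. The transcription factor gene Maf had log2 ratios of -0.59 (-0.75 to -0.42) and -0.61 (-0.69 to -0.53). P2ry12, the ADP receptor of resting microglia and a gene of the rule, had 5747 and 3548 CPM in control and 4065 and 2498 CPM in iPCKO, a log2 ratio of -0.70 in both.

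Inflammatory cytokines and chemokines were higher past the fold in 11 of 15 cases in control and 10 of 16 in iPCKO, none lower, with medians of 0.83 and 0.77. Of 10 activation genes that were picked in earlier work on these same libraries, and so are no independent evidence, 9 and 5 were higher, with medians of 0.87 and 0.59. Tnf, Il1a, Csf1, Cxcl10, Cxcl16, Ccl12 and Ccl4 are in both lists, so the cytokine counts are not independent of that choice. Csf1 and Cd52 are also among the disease-associated genes, Cxcl10 among the interferon-stimulated and Cd74 among the antigen presentation genes. Cxcl2, a chemokine that draws neutrophils, had 35.8 CPM in other and 474 CPM in DAM-like cells of control, and 124 and 527 CPM in iPCKO. In control this rested on few cells, since 8 DAM-like cells held the 202 UMIs and 3 of them held 86, 55 and 52. In iPCKO 97 cells held 1709. Il1b, the inflammasome cytokine, had 108 and 479 CPM in control and 328 and 722 CPM in iPCKO, and was found in 40.4% and 60.6% of DAM-like cells. In control 3 cells held 75, 58 and 21 of its 204 UMIs, or 75.5%, and in iPCKO the highest 3 held 6.37% of 2340. Ccl5 had 0.465 CPM in other and 37.6 CPM in DAM-like cells of control, where 2 cells held all 16 UMIs, and 10.5 and 151 CPM in iPCKO, where 49 cells held 491 UMIs and 1 of them held 204. Cxcl16, a membrane-bound chemokine, had log2 ratios of 1.54 (1.14 to 1.94) and 0.98 (0.85 to 1.11). Among members with enough UMIs, Tgfb1 (-0.53 and -0.19) and Il18 (-0.38 and -0.26) had lower levels in DAM-like cells of both libraries, short of the fold. Of 13 targets of NF-kB, the factor behind many of these genes, 6 were higher and 1 lower in control and 2 higher in iPCKO, with Gadd45b (1.28 and 0.56), a stress-response gene, and Bcl2a1d (1.14 and 0.64), which protects from apoptosis and has near-identical copies that can share reads, leading in control.

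Among all genes, those with the largest ratio in the same direction in both libraries were ranked by the value nearer to 0. The markers Lpl and Axl, which the rule used, were among the 20 highest and are not read further. Beside Cxcl2, Il1b, Cd52, Lyz2, Ccl6 and Capg, this gave the following. Cybb, the catalytic subunit of the phagocyte NADPH oxidase on the X chromosome, had 9.06 and 61.0 CPM in other and DAM-like cells of control and 45.9 and 205 CPM in iPCKO, log2 ratios of 2.75 (1.98 to 3.50) and 2.16 (1.94 to 2.38). It was found in 6 control DAM-like cells and in 141 of the iPCKO DAM-like cells. Cd72, an inhibitory lectin receptor, had 4.88 and 68.1 CPM in control, where 1 cell held 19 of the 29 UMIs, and 19.0 and 75.3 CPM in iPCKO, where 109 cells held 244. Il2rg, the common gamma chain of cytokine receptors, had log2 ratios of 2.36 (1.65 to 3.04) and 1.57 (1.26 to 1.89). Anxa5, a protein that binds phosphatidylserine, had 2.10 and 1.68, the inward rectifier potassium channel gene Kcnj2 had 1.65 and 1.75, and the proton-sensing receptor gene Gpr65 had 1.58 and 1.32. The other names in the higher direction were Glipr1, Igsf6, Birc5, Gas2l3, Rgs5 and Itga1.

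**Figure D3:**
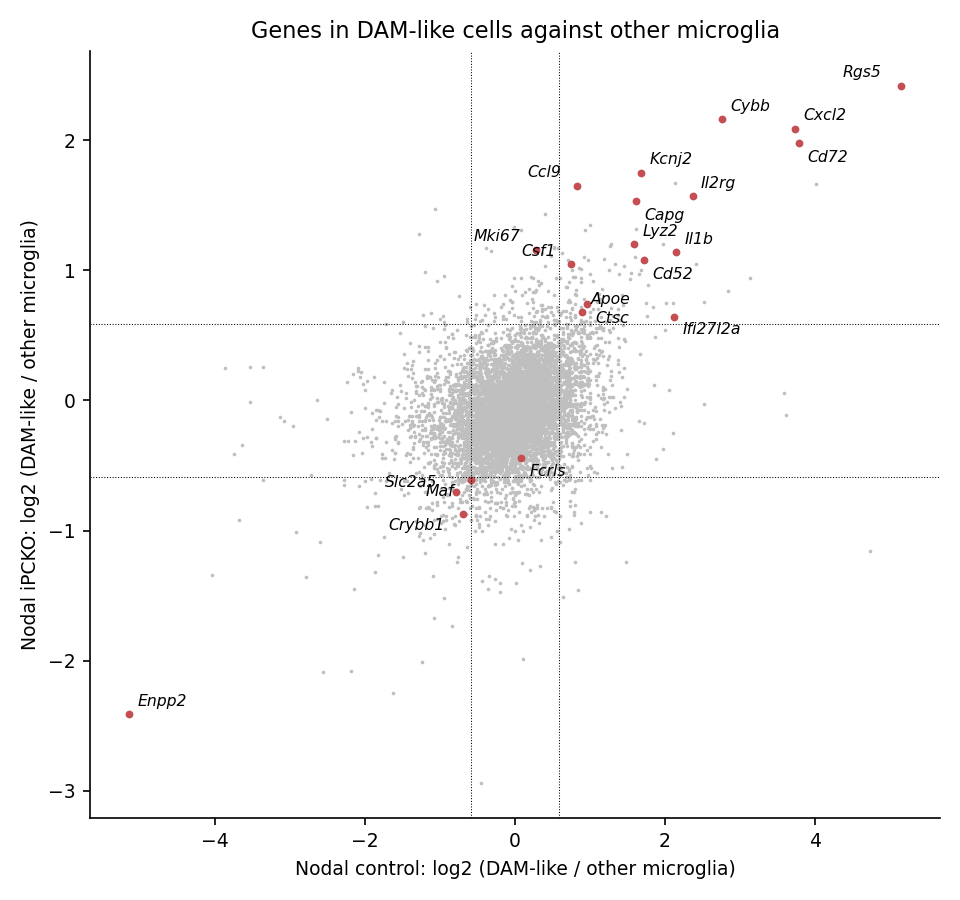
Log2 ratio of DAM-like over other microglia in Nodal control (horizontal) and Nodal iPCKO (vertical) for each gene with enough UMIs in both libraries, with an offset of 0.5 UMI and 1.5-fold marked by dotted lines. Cybb, Cxcl2 and Cd72 lie high in both libraries. In control 3 cells held 69.2% of the Cybb, 95.5% of the Cxcl2 and 89.7% of the Cd72 UMIs of DAM-like cells, and the place of Rgs5 also rests on few barcodes.

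Rgs5 and Itga1 are genes of pericytes and smooth muscle, and their place in this ranking came from single barcodes. In control 1 barcode held 331 of the 338 Rgs5 UMIs of all DAM-like cells, and in iPCKO 1 held 206 of 266. The 7 pericyte markers other than Pdgfrb, of which Atp13a5 was at 0 in control DAM-like cells, had 878 (791 to 972) CPM in control DAM-like cells and 103 (92.3 to 115) in iPCKO DAM-like cells, against 34.5 and 51.6 CPM in the other microglia. Without the barcodes that held at least 10 UMIs of other-cell markers (2 of 52 and 6 of 383 DAM-like cells, 19 of 693 and 14 of 864 other microglia), Rgs5 stood at -0.24 and 0.25, and Itga1 fell below the UMI minimum. Cybb (2.76 and 2.10) and Cxcl2 (3.79 and 2.04) differed little from their values with all cells. Cd72 fell below the UMI minimum in control, with 29 UMIs in DAM-like cells and 20 in other microglia, and stood at 2.02 in iPCKO. The largest ratios in the lower direction were those of Enpp2, Pcdh9, Khdrbs3, Myo18b, Aplp1, Ptprd, Adamts16, Gpm6a, Ptn and 1 gene without a symbol. Oligodendrocyte-lineage markers moved with them in control, at 579 CPM in other and 84.5 CPM in DAM-like cells. Without those barcodes Enpp2, Aplp1, Ptprd and Gpm6a fell below the minimum, Khdrbs3 stood at -2.11 and -2.22, and Ptn at -0.55 and -0.14.

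Promoters of Cxcl2 (chr5:90903649-90903948, plus strand) and Cd72 (chr4:43454577-43454876, minus strand) are shown for the higher group, from the same source and window. Capitals mark runs of 3 G, any 5 bases and 2 C, the loose form of the NF-kB site, and in Cd72 also the reverse complement of GAGGAAGT, an Ets-type run bound by the myeloid factor PU.1. Both strands were searched. In Cxcl2 the first run in capitals holds 2 overlapping matches, 97 bases before the start on the written strand and 96 before it on the other, and a further match lies at 78. In Cd72 the PU.1 run lies 49 bases before the start and the NF-kB form 14 bases before it. The NF-kB form is in 50.8% and the PU.1 run in 3.20% of all 32851 promoters. Of the marker promoters searched, that of Axl also held the NF-kB form, 81 bases before the start.
Cxcl2: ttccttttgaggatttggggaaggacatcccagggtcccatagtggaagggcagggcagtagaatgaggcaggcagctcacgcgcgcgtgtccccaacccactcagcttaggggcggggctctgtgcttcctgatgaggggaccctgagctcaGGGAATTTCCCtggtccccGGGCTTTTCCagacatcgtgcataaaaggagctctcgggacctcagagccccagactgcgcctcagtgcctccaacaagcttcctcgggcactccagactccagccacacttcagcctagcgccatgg
Cd72: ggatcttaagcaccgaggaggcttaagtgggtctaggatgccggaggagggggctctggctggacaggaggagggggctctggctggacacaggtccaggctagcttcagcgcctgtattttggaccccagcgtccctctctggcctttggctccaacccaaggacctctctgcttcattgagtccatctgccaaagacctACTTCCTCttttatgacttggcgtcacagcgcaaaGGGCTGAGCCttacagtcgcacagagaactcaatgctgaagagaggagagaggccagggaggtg

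Antigen presentation genes were higher in 4 of 12 cases in control and 3 of 14 in iPCKO, none lower, with medians of 0.49 and 0.30, led by H2-DMa (1.06 in control, 0.31 in iPCKO), which helps to load class II molecules, and in iPCKO by the class II chain gene H2-Ab1 (1.12). Interferon-stimulated genes were higher in 4 of 9 and 5 of 19 cases, with medians of 0.51 and 0.41, Ifi27l2a (2.10 and 0.64) and Ifitm3 (2.00 and 0.75), a restriction factor of viral entry, among them. Of 26 lysosomal genes, 4 were higher in control and 1 in iPCKO, against 9.75% and 4.66% of all genes. Ctsc, which activates serine proteases, was higher in both, with 378 and 739.6 CPM in control and 521 and 868 CPM in iPCKO. Complement and phagocytic receptors had medians of 0.07 and 0.13. Of these, the scavenger receptor gene Cd36 had 3 UMIs in other and 8 in DAM-like cells of control and 7 and 71 in iPCKO. Lipid-handling genes had medians of 0.15 and 0.00, although Apoe was past the fold in both libraries and Abcg1, a cholesterol exporter, in control (1.12, against 0.35 in iPCKO). Cholesterol synthesis genes were lower in 6 and higher in 2 of 14 cases in control (median -0.55) and past the fold in none in iPCKO (median -0.17). Without the barcodes with at least 10 UMIs of other-cell markers, 3 of 11 were lower and 2 higher in control (median -0.43). In iPCKO 1 of 14 was then lower (median -0.14). The list of postnatal axon-tract microglia, without the markers of the rule, had 5 of 8 and 5 of 10 genes higher, with medians of 0.95 and 0.55, among them Anxa5 in both libraries and Mmp12, a macrophage elastase, in iPCKO (1.78). In control Mmp12 stayed below the UMI minimum, with 16 of the 19 UMIs of DAM-like cells in 1 cell.

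Glycolysis genes (median 0.34 in control and 0.33 in iPCKO), oxidative phosphorylation genes (0.27 and 0.27) and ribosomal protein genes (0.07 and 0.14) were slightly above the level of the other microglia. Immediate early and dissociation genes, which mark handling of the tissue, had medians of -0.10 and -0.17. The list named TGF-beta and Nodal response, mostly receptors, Smad factors and other pathway components, had medians of -0.14 and -0.23. Of its 16 genes with enough UMIs, 0 were higher, and 1 in control and 2 in iPCKO were lower. Over all genes 12.1% and 5.92% were lower past the fold. Of the TAM receptors and ligands other than Axl, Mertk, the second receptor of the family in microglia, had 593 and 519 CPM in control and 382 and 271 CPM in iPCKO. The bridging ligands Gas6 (-0.17 and -0.37) and Pros1 (0.36 and 0.09) differed less than 1.5-fold, and Tyro3 had no UMI in DAM-like cells.

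Cell cycle genes gave unlike counts in the libraries. In iPCKO 13 of 20 were higher in DAM-like cells, with a median of 0.83, and in control 3 of 19 were higher and 1 lower, with a median of 0.27. Mki67, a marker of cycling cells, had 80.4 CPM in other and 179.5 CPM in DAM-like cells of iPCKO, and 60.7 and 72.8 CPM in control, where 1 cell held 19 of 31 UMIs. Cenpf, a kinetochore protein, had 24.0 and 64.8 CPM in iPCKO, and Ccnb1, the mitotic cyclin B, had 24.8 and 62.6. At least 2 UMIs of 6 mitosis genes were found in 22.2% (18.1 to 26.7) of iPCKO DAM-like cells against 10.3% (8.35 to 12.5) of the other iPCKO microglia, and in 11.5% (4.35 to 23.4) against 6.93% (5.15 to 9.08) in control. These shares depend on depth and were not taken on thinned cells. Median depth was 8297 UMIs in DAM-like against 5820.5 in other microglia of iPCKO, and 8074 against 5909 in control. With cells thinned to 1500 UMIs before the marker rule, which left 115 DAM-like cells in iPCKO, the median of the list was -0.22 there. Whether the libraries differ in it was not tested.

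**Figure D4:**
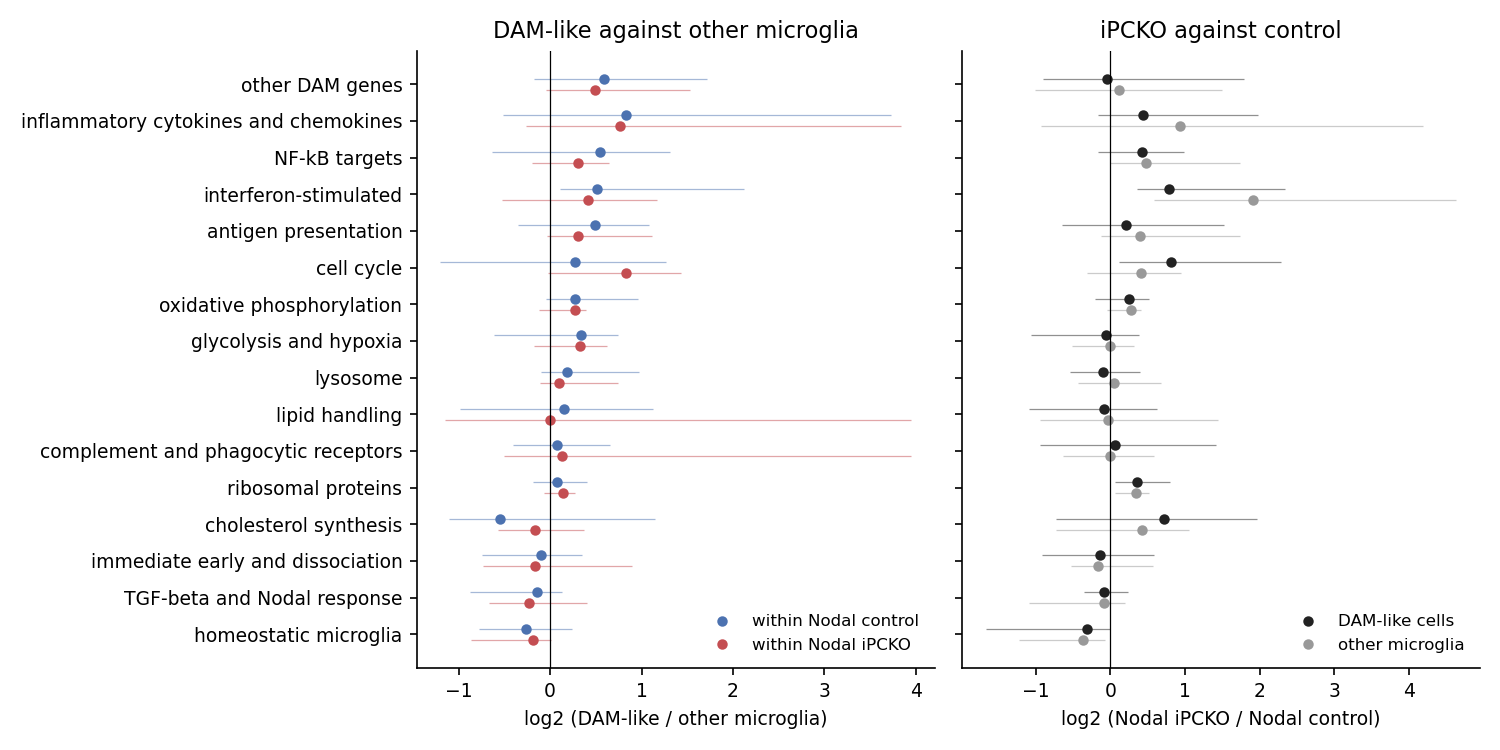
Median log2 ratio of selected gene lists (points) and range of its members (lines), without the genes of the rule, for DAM-like over other microglia within each library (left) and for Nodal iPCKO over Nodal control in DAM-like cells and in other microglia (right). Cytokines and chemokines have medians of 0.83 in control and 0.77 in iPCKO on the left, and cell cycle genes have 0.83 in iPCKO. The axon-tract list (0.95 and 0.55) and the activation genes (0.87 and 0.59) are not plotted.

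Levels were followed over the number of markers, which rose together with depth. P2ry12, a gene of the rule, stood at 6025 CPM in control cells without a marker, 5197 with 1, 3926 with 2 and 2390.2 with 3 or more. In iPCKO it was 4912, 3479.9, 3002, 2164 and 1304 CPM from no marker to 4 or more. Just outside and just inside the limit, at 1 and at 2 markers, Apoe stood at 903 and 1212 CPM in control and at 828 and 1233 CPM in iPCKO. Cd52 stood at 276 and 664 CPM in control and at 847 and 1201 CPM in iPCKO, and Cybb at 14.5 and 56.1 CPM and at 68.2 and 114 CPM. Control cells with 2 markers were lower in Cd52 than iPCKO cells with 1. Not all genes followed the number of markers at each step. From 2 to 3 markers in iPCKO, Apoe went from 1233 to 1055 CPM and the nuclear receptor gene Nr4a3 from 70.4 to 45.4. Sall1, a transcription factor that maintains microglial identity, went from 319 CPM at 3 markers to 341 at 4 or more.

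**Figure D5:**
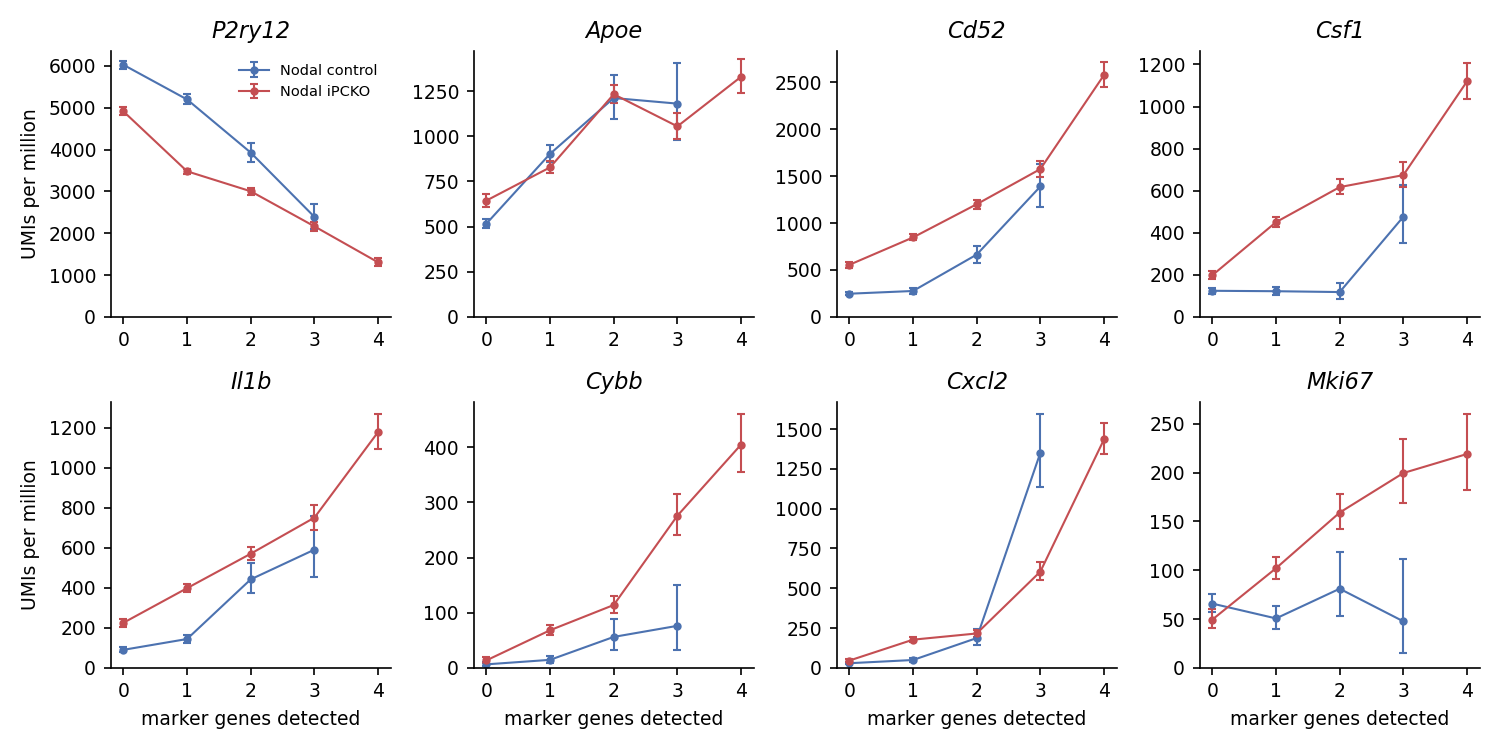
Level of 8 genes in CPM (vertical) by the number of marker genes detected per cell (horizontal) in Nodal control (blue) and Nodal iPCKO (red), with exact Poisson 95% intervals; the last point holds cells with 3 or more markers in control (11 cells) and with 4 or more in iPCKO (55 cells). P2ry12 is lower with each further marker in both libraries, from 6025 to 2390.2 CPM in control. Csf1 is higher in iPCKO than in control at 0, 1 and 2 markers.

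Cells of the iPCKO library that carried any of Clec7a, Itgax, Cst7 and Spp1 (226 of 383) were set against those with Axl and Lpl alone (157). The former include the 138 cells with 3 or more markers, at a median depth of 9598 UMIs, and all of the latter have exactly 2, at 7545. Ccl5 had 234 CPM in the former, where 1 cell held 204 of 473 UMIs, and 14.8 in the latter, Cxcl2 693 and 251, and Lyz2 231 and 109.7. Tnf, a main inflammatory cytokine, had 1333 and 922 CPM, and the anti-inflammatory receptor antagonist gene Il1rn had 25.2 and 4.11. P2ry12 was lower with these markers, at 2186 against 3019 CPM, and Sall1 was alike at 339 and 344 CPM. Apoe (1219 and 1189) and Top2a (203 and 203) also lay close together. When the former were limited to the 88 cells with exactly 2 markers (median depth 7255), a comparison added after these values were seen, several of these differences were not seen. P2ry12 had 2971 against 3019 CPM and Tnf 898 against 922. Il1rn had 5.95 CPM, from 4 UMIs, against 4.11. Cxcl2 was lower in these 88 cells, at 153 against 251 CPM, as were Csf1, at 516 against 673, and Top2a, at 138 against 203. Lyz2 stayed higher at 175 against 109.7 CPM, and Ccl5 had 242 UMIs, of which 204 were in 1 cell.

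Within DAM-like cells the iPCKO library was compared with control, a contrast that the rule did not use, although 78.8% of control and 64.0% of iPCKO DAM-like cells had exactly 2 markers. iPCKO DAM-like cells had more transcripts of the growth factor gene Csf1, of several chemokines, of interferon-stimulated genes and of cell cycle genes, and fewer of homeostatic genes. The medians of these lists had the same sign in the other microglia. The shift was larger there for the cytokine, interferon and homeostatic lists and smaller for cell cycle genes. The other microglia were not alike in markers either, since 212 of 693 in control and 465 of 864 in iPCKO had 1 marker. Of 7571 genes, 820 were higher (10.8%) and 929 lower (12.3%) past 1.5-fold, with a median log2 ratio of -0.05. In other microglia 5.38% of 10303 genes were higher and 5.48% lower. Where a log2 ratio of iPCKO over control is given for both classes, that of DAM-like cells precedes that of other microglia.

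Csf1, the ligand of Csf1r, had 207 CPM in control and 721 CPM in iPCKO DAM-like cells, and 123 and 347 CPM in other microglia, with a log2 ratio of 1.80 in DAM-like cells. At exactly 2 markers it stood at 118 (83.8 to 163) and 617 (582 to 654) CPM. Control cells with 3 or more markers had 476 (353 to 628) CPM. In iPCKO it was 674 (617 to 734) CPM with 3 and 1119.6 CPM with 4 or more. In control 3 cells held 51.1% of the 88 Csf1 UMIs of DAM-like cells, and in iPCKO the highest 3 held 10.4%. Among the disease-associated genes Csf1 stood apart, since the list had 3 of 23 members higher and 3 lower and a median of -0.04 (0.11 in other microglia). Cd52 (0.87) and Fth1, ferritin heavy chain (0.83), were the other members higher in DAM-like cells, and Serpine2 (-0.89), Ank (-0.80) and Ccl6 (-0.76) were lower. All 18 homeostatic genes outside the rule lay at or below 0 in DAM-like cells, 6 of them past 1.5-fold, with medians of -0.31 and -0.37. Fcrls, an Fc receptor-like gene of microglia, had 622 CPM in control and 196 CPM in iPCKO DAM-like cells, and Crybb1 had 279 and 106 CPM.

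Cytokines and chemokines had 7 of 16 members higher and none lower, with medians of 0.44 and 0.93. Ccl12 had 469.6 and 1340.1 CPM in control and iPCKO DAM-like cells (1.51 and 1.66) and Cxcl16 had 162 and 346 CPM (1.09 and 1.66). Cxcl2 had a log2 ratio of 0.15 (-0.06 to 0.37) in DAM-like cells, where 3 control cells held 95.5% of the control UMIs and the gene was found in 15.4% of control and 25.3% of iPCKO cells, and it was higher in other microglia of iPCKO (1.79). Of the 10 activation genes picked in earlier work on these libraries, 8 were higher in DAM-like cells and 9 in other microglia, with medians of 0.82 and 1.38. The cytokine list shares the members named above with them, so its counts are not separate evidence. Interferon-stimulated genes had 10 of 15 members higher and none lower, with medians of 0.79 and 1.91, with few control UMIs behind the members with the largest ratios. Ifit3 had 2 UMIs in control and 76 in iPCKO, a log2 ratio of 2.32 (0.42 to 5.39), and Rtp4 had 4 and 133, a log2 ratio of 2.13 (0.74 to 4.02). With at least 3 markers required the interferon median in DAM-like cells was -0.11, and with thinning to 1500 UMIs it was -0.19. Only 11 and 9 control cells remained there.

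Cell cycle genes had 13 of 20 members higher in DAM-like cells (median 0.81) and 6 of 20 in other microglia (0.41). Ccnb1 had 11.7 and 62.6 CPM, Rrm2, a subunit of ribonucleotide reductase, 9.39 and 48.1 CPM, and Ube2c, a ubiquitin-conjugating enzyme of mitosis, 32.9 and 110.4 CPM. Such control values rest on few UMIs, since control DAM-like cells held 425918 UMIs over all genes. At least 2 UMIs of 6 mitosis genes were found in 6 of 52 control DAM-like cells. The shares, 11.5% (4.35 to 23.4) in control and 22.2% (18.1 to 26.7) in iPCKO, have overlapping intervals. Cholesterol synthesis had 8 of 12 members higher and 2 lower (median 0.72, against 0.42 in other microglia), with Sqle, squalene epoxidase, at 7.04 and 31.8 CPM and Cyp51 at 47.0 and 105 CPM. The control value of Sqle also rests on few UMIs. Ribosomal protein genes lay above 0 in all 20 cases with a median of 0.35 (0.34 in other microglia), 2 of them past the fold. NF-kB targets had 5 of 13 members higher (median 0.42), and antigen presentation genes 3 of 14 higher and 1 lower (0.21). The lists of lysosomal (-0.10), lipid-handling (-0.08), complement (0.06), glycolysis (-0.06) and TGF-beta and Nodal response genes (-0.08) had medians close to that of all genes. Of the last list none of the 12 members with at least 50 UMIs was past 1.5-fold in DAM-like cells. In other microglia 1 of 16 was lower. Most of its members are receptors, Smad factors and other pathway components, so the list does not measure the response to the pathway.

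For 6 genes control DAM-like cells had no UMI and iPCKO DAM-like cells at least 50. With a count of 0 in control set to 3 UMIs over the class, the ratio of iPCKO over control was 3.50 for Mt2, a metallothionein. It was 2.63 for the chemokine gene Ccl22 and the oxidized lipoprotein receptor gene Olr1, and 2.54 for Ipcef1. Srxn1, an antioxidant enzyme, had 2.32, and Il12b, the shared subunit of IL-12 and IL-23, had 2.19. The genes were picked for a control count of 0 and met the UMI minimum through iPCKO alone. The ratios treat UMIs as independent, and no minimum fold follows from them. Each of these genes was carried by a minority of cells. Olr1 had 60 UMIs in 10 cells, Il12b 50 in 12, Ccl22 60 in 27, Mt2 80 in 30 and Srxn1 53 in 36. Of the Olr1 UMIs 59 lay in iPCKO cells with 4 or more markers, and control had 2 such cells. With 52 control cells, absence there was not shown. Mt2 had 17.0 CPM in the other microglia of control, where Ccl22, Olr1 and Il12b had no UMI. Folr2, with 1 control UMI and a log2 ratio of 3.12 (0.59 to 8.44), had 63 of its 66 iPCKO UMIs in 1 cell. Fcgr4, an activating Fc receptor, had 1 UMI in control and 86 in 53 iPCKO cells. The remaining names in the higher direction were Pdgfrb, Aurkb, Suv39h1, Tmem120b, Vps50, Cenpc1 and Ralgds, with 1 to 6 control UMIs each.

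Several rare transcripts of iPCKO cells were set against more common genes, in pairs chosen after values were seen. Of the 10 Olr1 cells, 8 had a Cxcl2 UMI, 80.0% (44.4 to 97.5) against 23.9% of the remaining DAM-like cells, and 9 had Cybb, against 35.4%. Of the 12 Il12b cells 9 had Cxcl2 (23.7% of the rest) and 11 had Csf1 (56.6%). Of the 49 Ccl5 cells 31 had Cd72, 63.3% (48.3 to 76.6) against 23.4%. Cybb was also found in 43 of the 75 Mki67 cells, 57.3% (45.4 to 68.7) against 31.8% of the others. Among the rare transcripts themselves, Il12b was found in 3 of the 10 Olr1 cells, 30.0% (6.67 to 65.2) against 2.41% of the rest, and Ccl22 in 3 of the 12 Il12b cells (5.49 to 57.2%) against 6.47%. These cells come from 1 library, and depth was not matched between the cells compared.

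The lowest ratios of iPCKO over control in DAM-like cells included those of Mgp, Col4a1, Rgs5, Col4a2, Acta2, Itga1, Tpm1, Col1a2, Cald1, Dlc1, Nrep and Igfbp7. The 8 fibroblast markers, with Lum and Apod at 0 in control DAM-like cells, had 210.1 and 28.7 CPM in DAM-like cells of control and iPCKO and 26.6 and 138 CPM in other microglia. In control 1 barcode held 59 of 64 Mgp UMIs, and 1 held 37 of 38 Acta2 UMIs. Without the barcodes with at least 10 UMIs of other-cell markers, Rgs5 was at -0.10, Nrep at 0.29, Igfbp7 at 0.32 and Dlc1 at -2.03, and the other 8 fell below the UMI minimum. Of the remaining names, Cxcl13 had its 34 control UMIs in 1 cell. Slc15a2, a peptide transporter, was lower in both classes, with 30 control UMIs and a log2 ratio of -2.67 (-3.40 to -1.92) in DAM-like cells and with 69.4 and 16.8 CPM in other microglia, and remained so without those barcodes (-2.83 and -2.05). Il1rl1, the IL-33 receptor, had 37.6 and 10.8 CPM.

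Pdgfrb (chromosome 18 from 61178212 to 61218133), the gene whose promoter drives the Cre transgene, was found in 68.4% of DAM-like and 68.3% of other microglia of iPCKO, and in 1.92% and 1.01% in control. Its level was 170.3 and 238 CPM in iPCKO and 14.1 and 1.92 CPM in control, where 1 DAM-like cell held all 6 UMIs. The DAM-like share among iPCKO microglia was 30.8% with and 30.6% without a Pdgfrb UMI. With cells thinned to 1500 UMIs it was 6.63% and 10.6%. In other cells of iPCKO it was found in 3.44% of endothelial-like and 54.8% of astrocyte-like cells (2.14% and 29.1% in control), and barcodes under 200 UMIs had 264 CPM in iPCKO and 80.0 CPM in control. Whether reads of the Pdgfrb-CreERT2 transgene were counted as Pdgfrb was not tested, so these values may not be those of the native gene.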

How the data were processed

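Single-cell whole-transcriptome libraries (BD Rhapsody) were prepared by the authors from 2 pooled mice per genotype. According to the methods, the authors counted UMIs with STARsolo (STAR 2.7.10a in the processing notes) on GRCm39 with Gencode annotation, for which vM33 and M26 are both named, without a cell filter and with multi-mapping reads assigned by expectation maximization. Values as deposited are thus estimated counts, not normalized, 9.08 and 9.21% of the entries fractional in the Nodal libraries, and near-identical genes may share reads. These libraries held 33889545 and 54791946 UMIs.

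The members and the 35 gene lists were chosen with earlier results of these data known. Cells were selected by the rule given above. Doublets were scored by Scrublet (scanpy 1.11.5, expected rate 0.1) and kept, and free RNA was not subtracted. Estimated counts were summed per library and class and divided by the class total (CPM). Intervals (scipy 1.17.1) are exact Poisson, Clopper-Pearson and, for ratios, conditional exact 95% intervals. A gene was detected in a cell at an estimated count of 1 or more. Estimated counts were rounded for intervals, thinning and Scrublet. Ratios of named genes use a floor of 3 UMIs for a count of 0. List medians and calls past 1.5-fold use an offset of 0.5 UMI and genes with at least 50 UMIs in the compared classes together. Comparison types needed at least 4 of 8 markers and at most 1 UMI over Csf1r, C1qa, Cx3cr1 and Tmem119. They also held at most 1 UMI of Aqp4 (endothelial-like) or Cldn5 (astrocyte-like). The script was tested on simulated counts.

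Named genes were the examples with the largest ratio of each list, the 20 highest and 10 lowest of DAM-like over other microglia by the library nearer to 0, and the 15 highest and 15 lowest of iPCKO over control. Exceptions and the genes by number of markers were chosen after values were seen. Alternatives changed the UMI, mitochondrial, microglia and marker limits, left out each marker, doublets or cycling cells, thinned cells, and changed the fold, UMI minimum and scaling. The authors' clusters and tests were not used.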

Additional observations from a re-analysis of the deposited data

Results flagged for a closer look

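Mgp and Col1a2, a matrix protein and a collagen chain, had opposite directions in the classes of microglia. The log2 ratio of iPCKO over control in DAM-like cells was -3.68 for Mgp and -2.30 for Col1a2, and in other microglia it was 2.25 and 4.04. The difference between the classes was not tested. In control DAM-like cells 1 barcode held 59 of 64 Mgp and 20 of 22 Col1a2 UMIs, and in iPCKO 1 barcode held 27 of 38 and 22 of 34. Without barcodes that held at least 10 UMIs of other-cell markers both genes fell below the UMI minimum in every comparison.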

How the results depend on the processing

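The control and iPCKO shares were 1.48% and 11.1% with at least 3 markers, 1.21% and 9.24% after thinning to 1500 UMIs, 4.95% and 22.3% after thinning to 4000, 2.68% and 12.8% without Axl in the rule, 2.68% and 16.6% without Lpl, and 1.72% and 8.06% of all barcodes past the limits. Without Itgax the iPCKO share was 26.5%. The iPCKO share was the higher under all 18 alternatives. Genes higher and lower in DAM-like cells of both libraries (110 and 135) numbered 203 and 310 with at least 3 markers, 198 and 294 after thinning to 1500 UMIs, 207 and 261 without Axl, 218 and 288 at a minimum of 20 UMIs per gene, 31 and 33 at 200, and 22 and 22 past 2-fold. Without Lpl 205 were lower. Genes higher and lower in iPCKO DAM-like cells (820 and 929) numbered 1355 and 1722 at 20 UMIs, 243 and 195 at 200, and 294 and 180 past 2-fold. They were 746 and 567 after thinning to 1500 UMIs, 666 and 604 without Axl, 909 and 769 with at least 3 markers and 864 and 830 without Lpl, so that higher genes outnumbered lower ones under these settings, at 200 UMIs and past 2-fold.

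Of 756 list medians under the alternatives 736 kept their direction within the spread allowed, 16 moved and 4 changed sign, and of 1619 values of named genes 1449, 140 and 30 did so. The interferon median of iPCKO over control was -0.11 with at least 3 markers and -0.19 after thinning to 1500 UMIs. The cell cycle median of iPCKO DAM-like over other microglia was -0.22 after thinning to 1500 UMIs and -0.13 without cycling cells. For DAM-like over other microglia, Rgs5 was -1.97 in control and -1.75 in iPCKO with at least 3 markers, -1.64 and -0.90 after thinning to 1500 UMIs, -2.86 and -1.69 without Axl, and -1.90 and -1.98 without Lpl. Itga1 was -1.29 and -2.06, -0.96 and -0.61, -2.18 and -1.96, and -0.46 and -1.75 under the same settings. After thinning to 4000 UMIs Rgs5 was -1.58 and Itga1 -1.16 in iPCKO. Birc5 was -0.37 in iPCKO after thinning to 1500 UMIs and -0.09 in control without Lpl, where Gpm6a was 0.11. Gas2l3 was -0.16 in control without Spp1. With at least 6 microglia genes Rgs5 was -0.32 in control, and iPCKO over control was 2.22 for Rgs5, 0.14 for Tpm1, 1.07 for Nrep and 1.61 for Igfbp7. Without barcodes with 10 UMIs of other-cell markers Rgs5 was -0.24 in control, and iPCKO over control was 0.29 for Nrep and 0.32 for Igfbp7. The cause of these changes was not tested.

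Leaving out these barcodes and thinning to 4000 UMIs were chosen after seeing the data. The split by sex was not run, because too few cells carried Y-linked UMIs without Xist. No paired analysis was possible because each genotype has 1 library. With 52 control DAM-like cells, genes under a few CPM could not be compared.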

Other observations

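Values that belong to no comparison above are those of further cell types within the DAM-like cells. The neutrophil list had 207 CPM in control and 172 CPM in iPCKO DAM-like cells, nearly all from Csf3r, which microglia also express, while Ngp and Retnlg were at 0 in all microglia. The lymphocyte list had 50.5 and 23.9 CPM, with Cd3e, Nkg7 and Gzma at 0 in DAM-like cells. The border-associated macrophage list had 183 and 176 CPM in DAM-like cells against 259 and 224 CPM in other microglia, and Cd163 was at 0 throughout. Neuronal markers had 17.0 and 21.1 CPM in DAM-like cells and erythrocyte markers 9.39 and 9.87 CPM.

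Astrocyte markers had 265 and 146 CPM in DAM-like cells of control and iPCKO and 245 and 169 CPM in the other microglia. Endothelial markers had 64.6 and 65.3 CPM in DAM-like cells.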
